A study of Homo sapiens with 4 samples.

Results

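The genes of the extrinsic route to apoptosis, from the ligand TRAIL through its death receptors to caspase-8, were followed on every probe set of an expression array in the established human myeloma line MM.1S. The 10 genes were TNFSF10, TNFRSF10A, TNFRSF10B, FAS, FADD, CASP8, CASP10, CFLAR, XIAP and BIRC2, and they were taken by name from the array's annotation. They had 45 of the 54675 probe sets, each annotated to 1 gene, and 10 of the 19775 genes with a probe set. Cells had been given the vehicle DMSO (control) or MLN4924 at 250 nM for 8, 16 or 24 h, and each condition had 1 array. MLN4924 blocks the NEDD8-activating enzyme (NAE), without which cullin-RING ubiquitin ligases are not switched on. The control label gave no culture time, and all 4 arrays came from the same line, so nothing here speaks for other myeloma cells.

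In the extrinsic pathway a ligand such as TRAIL (TNFSF10) or Fas ligand gathers death receptors at the cell surface. The receptors' death domains bind the adaptor FADD, which in turn binds the initiator caspases CASP8 and CASP10, and their activation starts the caspase cascade. CFLAR encodes c-FLIP, a relative of these caspases that lacks their protease activity and competes for FADD. XIAP blocks caspases further down, and BIRC2 encodes cIAP1, a ubiquitin ligase that keeps TNF receptor signalling on the survival side. Myeloma cells commonly carry TRAIL receptors and Fas, which is why the pathway is much studied in this disease.

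With 1 array per group there was no replicate spread and no test, and each difference is that of 1 array from another. As a stand-in for technical spread, measured probe sets of the same gene differed among themselves by a pooled SD of 0.160, 0.189 and 0.180 (log2) in the 8, 16 and 24 h comparisons, over 5719 genes. That value leaves out the spread between cultures. The arrays had like medians, between 92.2 and 95.4 in deposited intensity, and the 3' to 5' ratios of the GAPDH and ACTB control probe sets lay between 1.18 and 1.21 and between 1.95 and 2.21. The part that the ACTB ratio, lowest on the 8 h array, has in the results was not tested. The plasma cell and MM.1S markers SDC1, CD38, TNFRSF17, IRF4, PRDM1, XBP1, MAF and CCND2 were all measured. These are markers of the cell type the label gives. Their summed intensities were 51168, 42653, 47741 and 48218 on the control, 8, 16 and 24 h arrays. The sum does not stand for each marker. On the same arrays CCND2 had 11264, 7149, 7098 and 7040, and PRDM1 had 4163, 4983, 5262 and 5094. Of the markers of other cells with a probe set, 1 of 4 for T and NK cells, 1 of 4 myeloid, 1 of 4 stromal and 0 of 2 B cell ones were measured, and HBB was the erythroid one.

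Sequence just before the transcription start is shown for 4 of the genes, chosen because their arrays went different ways: TNFSF10 and CFLAR were lower at 8 h, FAS was lower at 24 h, and BIRC2 was higher at each time. The windows are RefSeq's, 250 bases before a start on GRCh38.p14, read 5' to 3' on the gene's strand, and the first listed is given where a gene has several. They are chr3:172523431-172523680 (minus strand), chr10:88990548-88990797 (plus strand), chr2:201118466-201118715 (plus strand) and chr11:102346964-102347213 (plus strand). Capitals mark a match to any of 3 motifs searched on both strands.
TNFSF10: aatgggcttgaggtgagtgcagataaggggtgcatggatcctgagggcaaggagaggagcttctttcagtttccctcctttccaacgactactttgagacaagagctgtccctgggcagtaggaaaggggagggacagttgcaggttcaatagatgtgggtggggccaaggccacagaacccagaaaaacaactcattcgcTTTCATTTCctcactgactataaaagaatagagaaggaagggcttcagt
FAS: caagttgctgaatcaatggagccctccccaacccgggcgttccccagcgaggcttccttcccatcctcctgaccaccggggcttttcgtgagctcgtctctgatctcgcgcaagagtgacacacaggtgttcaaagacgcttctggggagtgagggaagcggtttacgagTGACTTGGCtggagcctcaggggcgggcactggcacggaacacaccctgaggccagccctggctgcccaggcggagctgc
CFLAR: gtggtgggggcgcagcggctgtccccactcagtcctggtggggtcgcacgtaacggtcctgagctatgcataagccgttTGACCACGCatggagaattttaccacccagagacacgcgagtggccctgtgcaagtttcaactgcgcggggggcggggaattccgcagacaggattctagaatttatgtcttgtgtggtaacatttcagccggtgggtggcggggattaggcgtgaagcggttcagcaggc
BIRC2: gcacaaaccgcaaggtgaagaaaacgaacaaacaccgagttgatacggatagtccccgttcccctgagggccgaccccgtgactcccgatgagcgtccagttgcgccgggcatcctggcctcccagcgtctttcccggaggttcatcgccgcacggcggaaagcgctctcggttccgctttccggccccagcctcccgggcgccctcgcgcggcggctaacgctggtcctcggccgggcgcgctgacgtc

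The motifs were GAANNGAAA, the core that interferon regulatory factors bind, TGACNNNGC, the core of an antioxidant response element, and GTAAACA, a forkhead site. Windows were found for 7 of the 10 genes, 17 windows in all. The interferon factor core was in 3 of them, 1 each of TNFSF10, FAS and CFLAR, and 6.56% of 34788 windows across all genes of the table hold it. Of these 3, the windows of FAS and CFLAR are not the ones printed. The antioxidant core was in 4 windows of 3 genes, FAS, CFLAR and XIAP, against 10.9% of all windows, and some windows of a gene overlap. Both matches of FAS are the same site, held by overlapping windows, so the count of windows is larger than that of sites. GTAAACA was in 0 of the 17, against 2.98% of all. A match is a run of letters and was not shown to be a bound site.

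Differences of the 10 genes from the control were mostly under 1.5-fold. The arrays read RNA of whole cultures, so a difference in every cell and one in a part of the cells cannot be told apart. Each gene was read from its brightest probe set, and all 10 counted as measured, that is, with a mean above the median of all probe sets. At 8 h, 1 gene, TNFSF10, was at least 1.5-fold from the control, against 1.86% of the 12446 measured genes of the array. The count was 0 with the median over measured probe sets or over all probe sets, without _x_at, _s_at and _a_at probe sets, or with the filter at the 75th percentile, and 2 with arrays centred on their medians. At 16 h 0 genes reached that fold (4.97% of all measured genes did) and at 24 h 0 genes (5.16%). No gene of the 10 reached 2-fold at any time, against 0.249%, 0.675% and 0.707% of measured genes. The median difference of the 10 was -0.11, 0.025 and -0.018 (log2) at 8, 16 and 24 h, beside 0.0071, 0.026 and 0.016 over all measured genes. At 8 h 7 of the 10 were below the control, while 51.7% of all measured genes were above it. Some of these signs rest on small differences, such as those of CASP10 (0.0094), TNFRSF10A (-0.032) and FAS (0.084). With the median over measured probe sets, FAS (-0.010) and CASP10 (-0.013) also lay below the control. By their brightest probe sets, 5 were above and 5 below at 16 h and at 24 h. Of all measured genes, 54.3% and 52.6% were above the control at these times. Differences larger than the pooled SD between probe sets were seen in 5, 4 and 7 of the 10 genes, and in 39.1%, 44.4% and 46.1% of all measured genes. The median size of the differences, without sign, was 0.162, 0.171 and 0.240 in the 10 genes, beside 0.124, 0.165 and 0.165 in all.

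**Figure D1:**
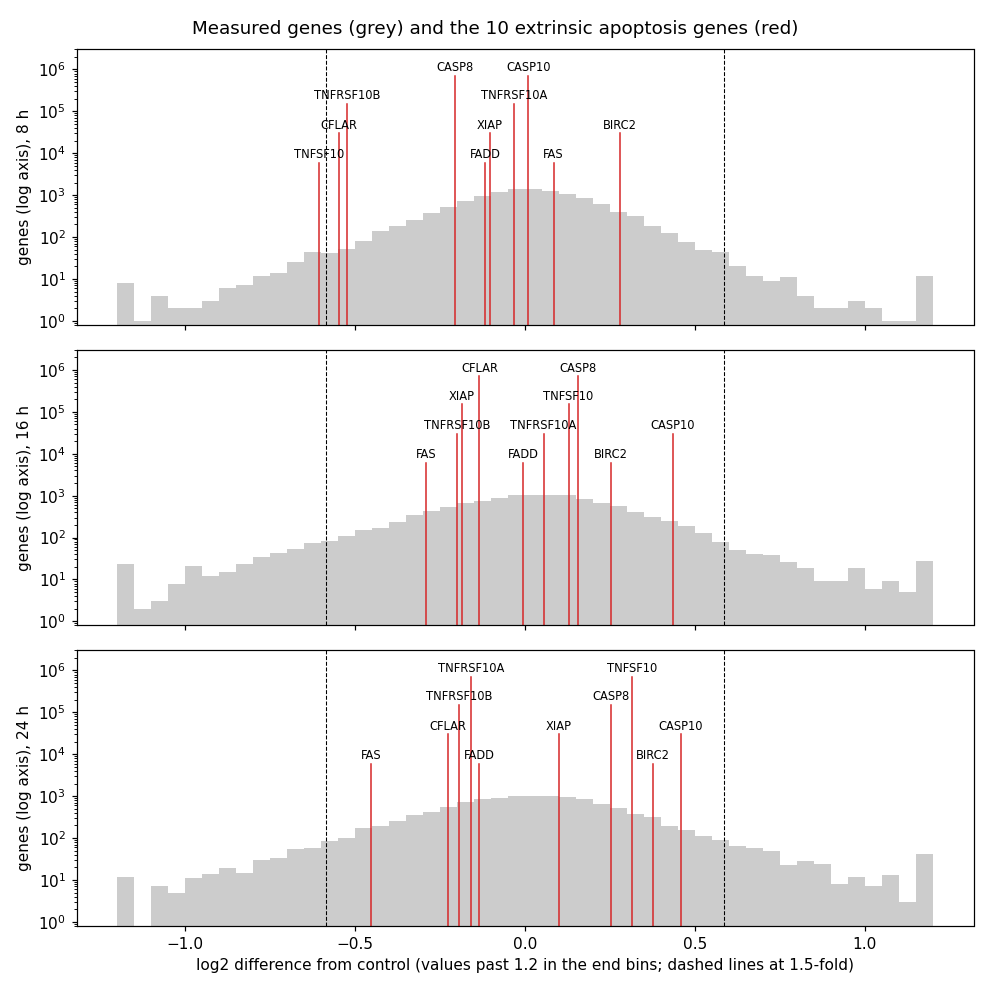
Log2 difference from control (horizontal axis) of all measured genes as grey histograms with a log count axis, at 8, 16 and 24 h from top to bottom, with the 10 genes as red lines whose height only separates the names. At 8 h TNFSF10, CFLAR and TNFRSF10B lie at -0.61, -0.55 and -0.52, near or past the dashed 1.5-fold line, and at 24 h the genes spread between -0.45 (FAS) and 0.46 (CASP10).

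The ligand gene TNFSF10 had the largest difference of the 10 when each was read from its brightest probe set. With the median over measured probe sets it stood at -0.39 at 8 h, nearer to the control than TNFRSF10B (-0.52). The brightest probe set of TNFSF10, 202687_s_at, had intensities of 153, 100.3, 167 and 190 on the control, 8, 16 and 24 h arrays. The 8 h array was the low one and the 24 h array the high one. The 8 h value lay near the median of its array, 95.1, so the size of the 8 h difference is uncertain. The differences from control were -0.61, 0.13 and 0.31 (log2), and 1.60% of measured genes lay at least as far from the control at 8 h. The second measured probe set, 202688_at, had 122, 108, 133 and 167, which is the same order of the arrays with a shallower low at 8 h (-0.18) and a larger excess at 24 h (0.46). The third, 214329_x_at, was too dim to count as measured, with 67.0, 45.0, 66.6 and 74.4, and its 8 h value lay under the floor of 48.4 set for low values. All 3 probe sets were thus lowest at 8 h and highest at 24 h. Between 8 and 16 h the brightest probe set differed by 0.74, past 1.5-fold, as 1.86% of measured genes were in that direction, and the second by 0.31. Among measured genes with a mean intensity under 200, 1.11% were at least 1.5-fold lower at 8 h.

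TNFRSF10B, which encodes the TRAIL receptor DR5, was also low at 8 h. Its probe set 209295_at had 533, 371, 464 and 466 on the control, 8, 16 and 24 h arrays. The control array was the highest of the 4, and the later arrays lay between it and the 8 h one. The differences were -0.52, -0.20 and -0.20 (log2), and 2.74% of measured genes lay at least as far from the control at 8 h. The other 3 probe sets of the gene were below the level counted as measured. At 8 h they stood at -0.23, -0.13 and -0.027, so they shared the sign but not the size.

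TNFRSF10A, which encodes DR4, the other TRAIL receptor with a death domain, hardly differed between arrays. Its probe set 231775_at had 715, 700, 743 and 641 on the control, 8, 16 and 24 h arrays. The differences of -0.032, 0.054 and -0.16 (log2) were all smaller than the pooled SD. Its other measured probe sets stood at -0.18 and 0.051 at 24 h, and thus on opposite sides of the control. The pair of TRAIL receptors therefore had unlike values at 8 h, -0.52 for TNFRSF10B and -0.032 for TNFRSF10A, and like ones at 24 h, -0.20 and -0.16.

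FAS, the receptor of Fas ligand and a known p53 target, was lower on both later arrays. Probe set 204781_s_at had 513, 544, 419 and 374 on the control, 8, 16 and 24 h arrays, and 204780_s_at had 514, 478, 404 and 376. The 2 agree on the order of the later arrays and disagree on the side of the control at 8 h (0.084 and -0.10, log2). The differences of the first were -0.29 at 16 h and -0.45 at 24 h. All 4 measured probe sets were below the control at 16 h, between -0.35 and -0.14, and all 4 at 24 h, between -0.51 and -0.32. The median over the 4 at 24 h was -0.45, the furthest from the control of the 10 genes, with an SD among them of 0.077. Even so, 10.3% of measured genes lay at least as far from the control, and the gene did not reach 1.5-fold.

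FADD, the adaptor, was flat. Its only probe set, 202535_at, had 482, 444, 480 and 439 on the control, 8, 16 and 24 h arrays, and its differences of -0.12, -0.00525 and -0.14 (log2) were all within the pooled SD. With 1 probe set its agreement could not be checked.

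**Figure D2:**
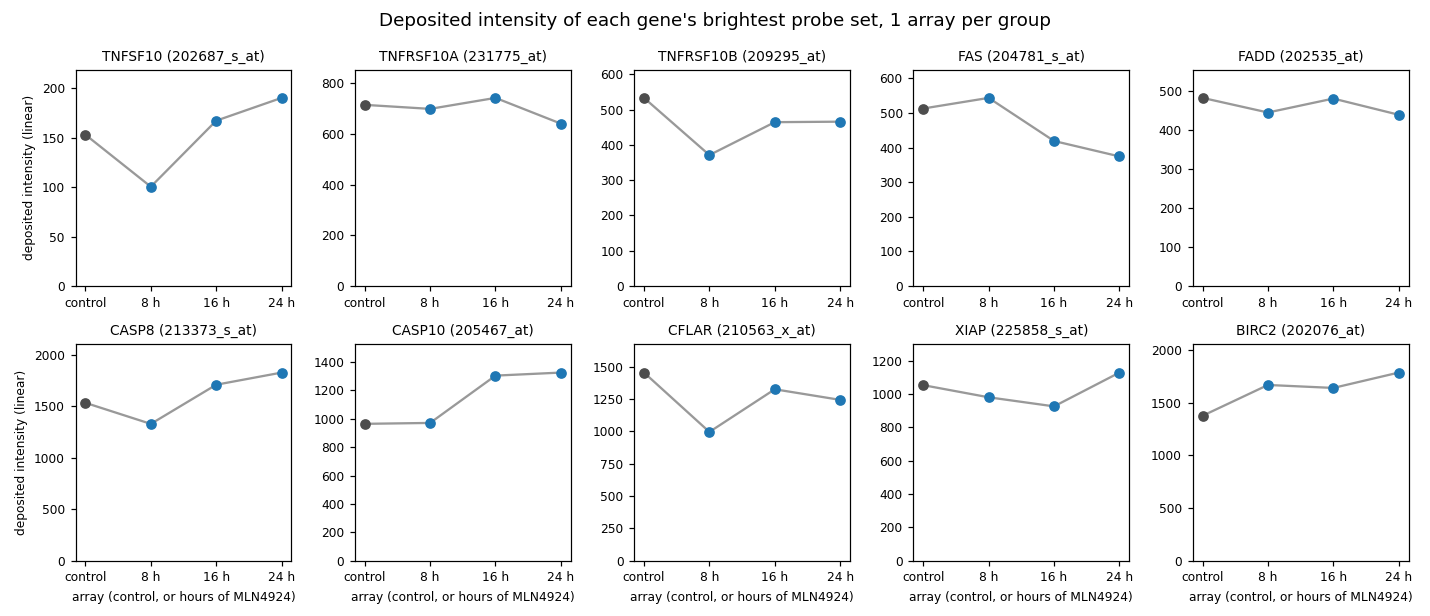
Deposited intensity (linear, each axis from 0) of the brightest probe set of each of the 10 genes on the control array (grey) and after 8, 16 and 24 h of MLN4924 (blue), 1 array per point. TNFSF10, TNFRSF10B, CASP8 and CFLAR have their lowest point at 8 h, FAS has its lowest at 24 h, and CASP10 has its 2 highest points at 16 and 24 h.

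CASP8, the initiator caspase, was slightly below the control at 8 h and slightly above it later. Probe set 213373_s_at had 1532, 1328, 1708 and 1826 on the control, 8, 16 and 24 h arrays, and 207686_s_at had 292, 262, 323 and 334. Both had the 8 h array lowest and the 24 h array highest. The differences were -0.21, 0.16 and 0.25 (log2) in the first and -0.16, 0.15 and 0.20 in the second. The third, 1553306_at, was under the floor on all 4 arrays. The sizes are small, since 31.1% of measured genes lay at least as far from the control at 24 h.

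CASP10, the second initiator caspase that FADD recruits, was higher at 16 and 24 h in its brightest probe set. Probe set 205467_at had 965, 971, 1305 and 1326 on the control, 8, 16 and 24 h arrays. The control and the 8 h array lay together, and so did the later ones. The differences were 0.0094, 0.44 and 0.46 (log2), the highest of the 10 genes at both later times, and 11.4% and 9.95% of measured genes lay at least as far from the control. The other 3 measured probe sets did not show that size. At 24 h they stood at 0.098, -0.14 and 0.20, and 210708_x_at, at 0.30 at 16 h, was the one below the control at 24 h. The median over the 4 probe sets was 0.21 at 16 h and 0.15 at 24 h.

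CFLAR, the caspase-8 inhibitor, had 14 probe sets, more than any other of the 10, and they lay on both sides of the control at each time. The brightest, 210563_x_at, had 1456, 997, 1327 and 1245 on the control, 8, 16 and 24 h arrays, with the 8 h array lowest and the control highest. Its differences were -0.55, -0.13 and -0.23 (log2). The next, 209939_x_at, had 826, 745, 851 and 905, so the 24 h array was its highest. Its differences were -0.15, 0.043 and 0.13.

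Of the 12 measured CFLAR probe sets, 10 were below the control at 8 h, with a range of -0.55 to 0.22 and a median of -0.14. At 16 h 5 were below and 7 above, with a median of 0.026, and at 24 h 4 were below and 8 above, with a median of 0.069. The brightest probe set was thus the lowest of the 12 at 8 h and again the lowest at 24 h. The highest at 16 and 24 h was 237367_x_at, with 242, 234, 318 and 327 on the control, 8, 16 and 24 h arrays (differences of -0.051, 0.39 and 0.43). None of the 12 was 1.5-fold from the control at any time. Probe sets whose name ends in _x_at can take up other transcripts, and 9 of the 12 have that ending. CFLAR, CASP10 and CASP8 lie next to each other in that order on chromosome 2, with no other protein-coding gene between them in RefSeq. Their brightest probe sets did not share a pattern: CFLAR was below the control at 24 h (-0.23), CASP10 (0.46) and CASP8 (0.25) above it.

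XIAP, an inhibitor of caspases, was lowest on the 16 h array, at -0.186 (log2) from the control in its brightest probe set. That is within the pooled SD of 0.189, and 45.2% of measured genes lay at least as far from the control. Probe set 225858_s_at had 1053, 981, 926 and 1129 on the control, 8, 16 and 24 h arrays, and 228363_at had 1082, 892, 852 and 985. Both were lowest at 16 h. The first was above the control at 24 h (0.10, log2) and the second below it (-0.14). At 16 h 4 of the 5 measured probe sets were below the control, between -0.35 and -0.095, and 243026_x_at was above it at 0.12. At 24 h 4 of the 5 were above it. Of the 5 measured ones, 228363_at lay furthest from the control at 8 h (-0.28) and at 16 h.

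BIRC2, which encodes cIAP1, was above the control on every treated array. Its only probe set, 202076_at, had 1377, 1670, 1642 and 1787 on the control, 8, 16 and 24 h arrays. The control was the lowest of the 4. The differences were 0.28, 0.25 and 0.38 (log2), each larger than the pooled SD, and 16.6%, 31.6% and 15.8% of measured genes lay at least as far from the control. At 8 h BIRC2 was the highest of the 10 genes.

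**Figure D3:**
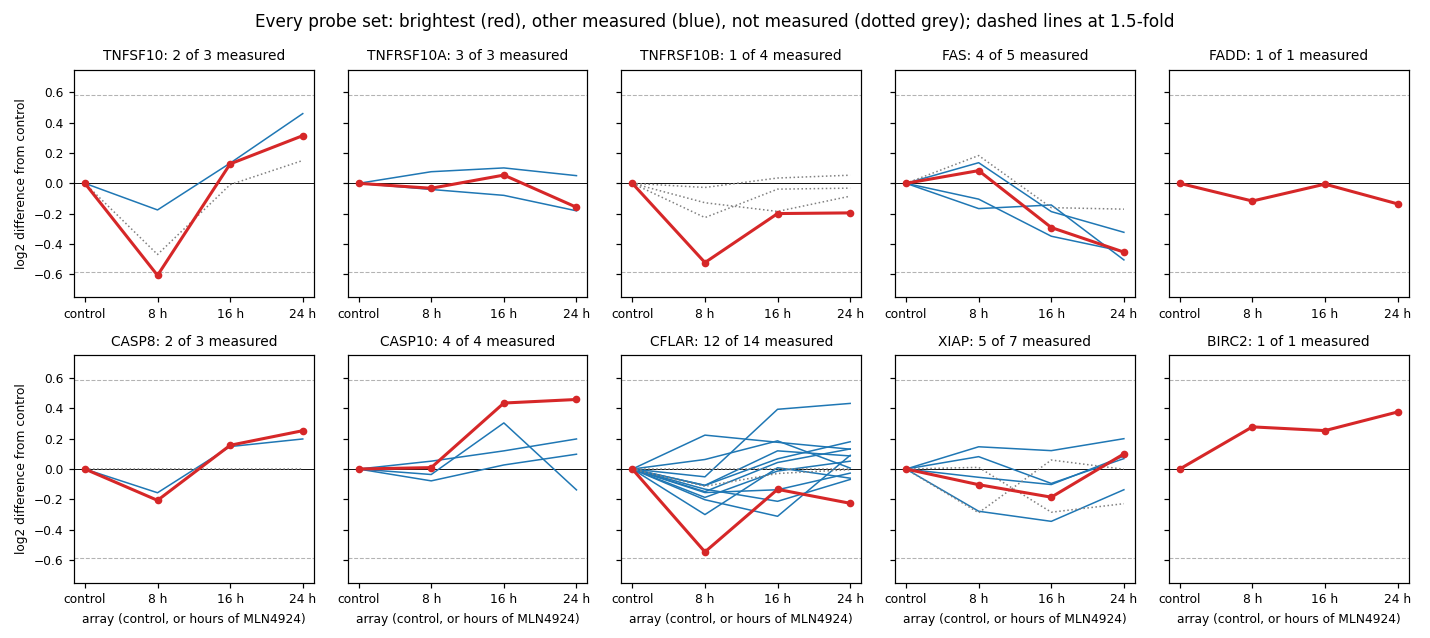
Log2 difference from control (vertical axis) of every probe set of the 10 genes on the control array, where it is 0, and after 8, 16 and 24 h of MLN4924, with the brightest probe set in red, other measured ones in blue and those not measured as dotted grey lines. The measured lines of TNFSF10, CASP8 and FAS at 24 h lie on 1 side of the control, those of CFLAR fan out between -0.23 and 0.43 at 24 h, and 1 measured line, in TNFSF10 at 8 h, passes the dashed 1.5-fold line.

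Over all 35 measured probe sets of the 10 genes, 25 were below the control at 8 h and 10 above. At 16 h 16 were below and 19 above, and at 24 h 14 were below and 21 above. No such split over all measured probe sets was set beside these counts, and whether they depart from it was not tested. Of all measured genes, 51.7%, 54.3% and 52.6% were above the control at 8, 16 and 24 h. Probe sets of 1 gene read the same RNA and are not replicates, and 12 of the 35 belong to CFLAR. Only 1 of the 35 was 1.5-fold from the control at 8 h, against 1.78% of all measured probe sets annotated to 1 gene, 0 at 16 h (5.15%) and 0 at 24 h (4.74%).

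The 10 genes were sorted by the array on which the brightest probe set was lowest. It was the 8 h array for 4, TNFSF10, TNFRSF10B, CASP8 and CFLAR, against 25.7% of all measured genes. It was the 24 h array for 3, TNFRSF10A, FAS and FADD (26.2% of all), the control for 2, CASP10 and BIRC2 (29.7%), and the 16 h array for XIAP (18.5%). For TNFRSF10A, FADD and XIAP the lowest value was within the pooled SD of the control. The gene-by-gene differences at 8, 16 and 24 h share the control array, so an unusual control value would move all 3 of a gene the same way.

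The wider pathway list held 69 genes of 5 kinds, of which 61 had a probe set annotated to 1 gene and 55 were measured. At 8 h 1 was at least 1.5-fold lower (1.12% of all measured genes were) and 0 were higher (0.731%). At 16 h 2 were lower and 0 higher, against 2.73% and 2.24%, and at 24 h 2 were lower and 0 higher, against 2.31% and 2.85%. The medians of the 55 were 0.030, -0.044 and -0.029 (log2), near the 0.0071, 0.026 and 0.016 of all measured genes. The genes past 1.5-fold were all below the control.

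Of 11 measured ligand and receptor genes, 1 was past 1.5-fold, at 24 h. This was TNFRSF21, which encodes DR6, another receptor with a death domain, with 134, 120, 92.2 and 67.2 on the control, 8, 16 and 24 h arrays. Each treated array was below the one before it. The values at 16 and 24 h are under the medians of their arrays, so the size of the difference at 24 h (-0.998, log2) is uncertain. TNFRSF10D, a decoy receptor for TRAIL with no working death domain, had 160, 107, 112 and 119, or -0.58, -0.51 and -0.42. It lies just under 1.5-fold at 8 h, in its only measured probe set. The treated values of TNFRSF10D are not far above the medians of their arrays, so the sizes of its differences are uncertain too. TNFRSF1A, the main TNF receptor with a death domain, had 608, 735, 870 and 676, and was highest at 16 h. TNFRSF10D and TNFRSF1A were named after their values were seen.

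Of 15 measured adaptor, kinase and ubiquitin-editing genes, TNFAIP3 was past 1.5-fold at 8 h and FAIM at 16 h. TNFAIP3 encodes A20, which trims ubiquitin in TNF receptor signalling, and had 3327, 1996, 2550 and 2588 on the control, 8, 16 and 24 h arrays (-0.74, -0.38 and -0.36, log2). FAIM, an inhibitor of Fas-mediated apoptosis, had 430, 305, 249 and 309 (-0.50, -0.79 and -0.48). TRADD, the adaptor of the TNF receptor, was below the control at 8 h (-0.20) and above it at 16 and 24 h (0.43 and 0.41). CYLD, a deubiquitinase of the same pathway, stood at -0.53 at 8 h, with 4 of its 6 measured probe sets on that side. TRADD and CYLD were named after their values were seen.

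The 8 measured genes of the group of downstream caspases and the mitochondrial link included the initiator caspases CASP2 and CASP9. The 8 genes had a median of 0.17 (log2) at 8 h, where 8 of 8 were above the control. Later medians were 0.0087 and 0.0034. Over all measured genes the median at 8 h was 0.0071 and 51.7% were above the control. CASP2 and CASP6 were close to it at 8 h (0.0026 and 0.035), and CASP6 stood at -0.065 as the median of its 2 measured probe sets. None was past 1.5-fold at any time. The largest differences were those of CASP2, an initiator caspase outside the death receptor complex, with -0.56 at 24 h, and CASP9, the initiator caspase of the mitochondrial route, with 0.51 at 16 h. For CASP2 5 of 7 measured probe sets were on that side, and for CASP9 both were. The 8 measured IAP genes and antagonists had medians of 0.033, -0.12 and -0.074, and none was past 1.5-fold. BIRC7, another member of the IAP family, stood at 0.27 at 24 h and DIABLO, which encodes the IAP antagonist SMAC, at -0.30. BIRC7 was dim, with 109, 119, 116 and 131 on the control, 8, 16 and 24 h arrays. These values are not far above the array medians, so the size of its difference is uncertain.

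Of 13 measured regulators of the receptor genes and of receptor glycosylation, 1 was past 1.5-fold at 16 h and 1 at 24 h, and both times this was CDKN1A. This p53 target, a cyclin-dependent kinase inhibitor, had 1324, 1092, 834 and 641 on the control, 8, 16 and 24 h arrays (-0.28, -0.67 and -1.05, log2). MDM2, also a p53 target, had 4157, 4464, 3975 and 4138 (0.10, -0.065 and -0.0065). Of the 5 NF-kB genes of the list, RELB stood at -0.54, NFKBIA at -0.48, NFKB2 at -0.36, NFKB1 at -0.27 and RELA at 0.10 at 8 h. With the median over measured probe sets NFKBIA stood at -0.25, NFKB2 at -0.56 and RELA at -0.0016. These NF-kB genes and MDM2 were named after their values were seen, and whether their difference has a part in that of the 10 genes was not tested.

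**Figure D4:**
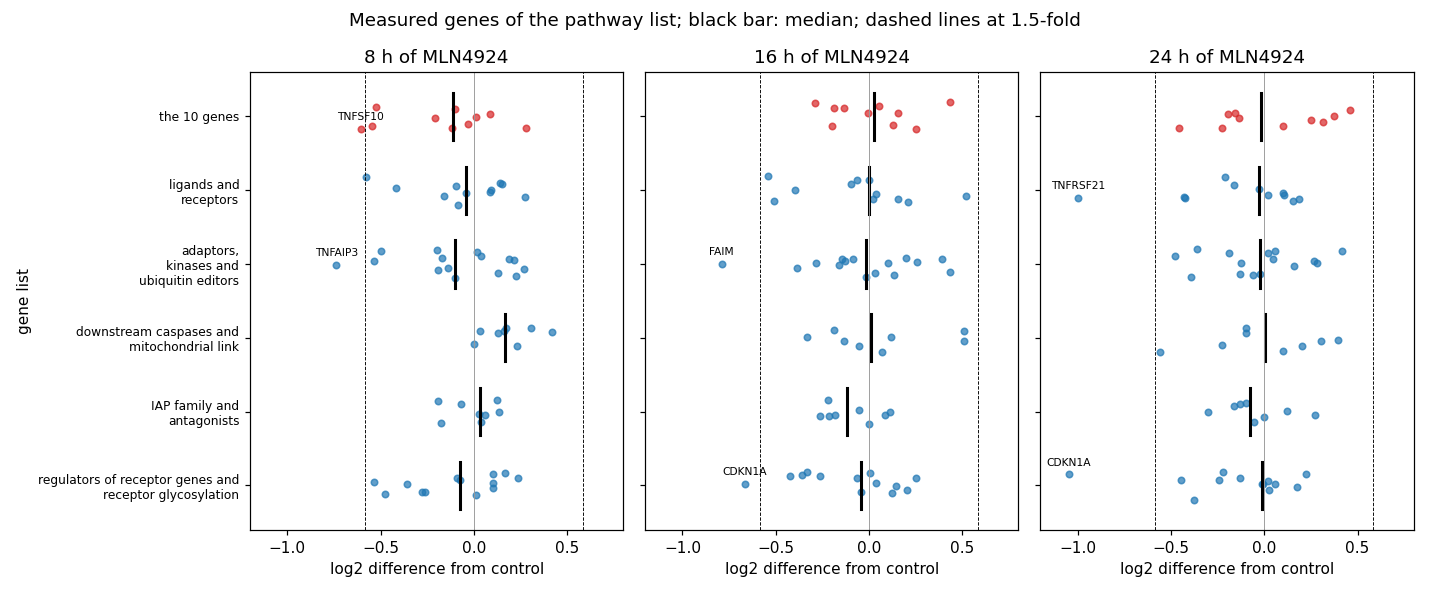
Log2 difference from control (horizontal axis) at 8, 16 and 24 h of the 10 genes (red) and of the measured genes of the 5 groups of the wider list (blue), 1 point a gene, with a black bar at each median and the vertical position within a group random. The labelled points past the dashed 1.5-fold lines are TNFSF10 and TNFAIP3 at 8 h, FAIM and CDKN1A at 16 h, and TNFRSF21 and CDKN1A at 24 h, all on the low side.

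TNFSF10 was also set against the measured genes outside the 10 and the wider list by the largest gap between differences at the 3 times. The nearest of 12381 genes were NIFK-AS1 (-0.64, 0.12 and 0.31, log2; largest gap 0.037), LINC01004 (-0.53, 0.067 and 0.27; 0.073) and ORAI3 (-0.61, 0.18 and 0.23; 0.080), and 4 genes in all came within 0.1. The likeness rests on 3 differences that share 1 control array, and it says nothing of function.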

How the data were processed

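Total RNA of MM.1S cells was extracted with Trizol and hybridised as biotin-labelled cRNA to Affymetrix arrays, per the labels' protocols. The authors' deposited values are intensities on a linear scale, and how probe sets were summarised, background-corrected and normalized is not given in the sources used here. No further normalization was applied, since array medians lay within 0.048 (log2) of the control, far from the 0.3 that would have called for one. Precision is limited by the number of arrays, 4 with 1 per group.

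Genes were assigned from the platform annotation, 41097 of 54675 having exactly 1 gene, of which 41043 were matched by Entrez identifier to RefSeq (GRCh38.p14). Values under the 25th percentile (48.4) were raised to it, and log2 was taken. The brightest probe set by mean log2 stood for each gene, and a probe set was called measured above a geometric mean intensity of 93.9, the median over the array. Differences are treated minus control, and counts are of genes at least 1.5-fold or 2-fold from control. No test was run. Alternatives changed the floor, the filter, the choice of probe set and the scaling between arrays. The procedure was tested on simulated data.

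Named by rule besides the 10 genes were, per group of the wider list, up to 6 measured genes past 1.5-fold, or else the 2 with the largest difference. The 3 genes nearest to TNFSF10 were also named by rule. Other genes of the wider list, CASP6 among them, were named outside this rule. The 10 genes and the lists were chosen with earlier results of these data known, and so were the motifs. Python 3.11.15, numpy 2.4.6, pandas 2.3.3 and matplotlib 3.10.9 were used.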

Additional observations from a re-analysis of the deposited data

How the results depend on the processing

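Each result was recomputed under 9 alternatives to the floor, the filter, the probe set that stands for a gene and the scaling between arrays. The count of 1 extrinsic apoptosis gene past 1.5-fold at 8 h, TNFSF10, was 0 with the median over measured probe sets, 0 with the median over all probe sets, 0 without _x_at, _s_at and _a_at probe sets (8 genes measured) and 0 with the filter at the 75th percentile, which leaves TNFSF10 out. It was 2 with arrays centred on their medians, where CFLAR stood at -0.59. The counts of 0 at 16 and 24 h were 0 under every alternative, and the medians of the 10 genes at each time moved by less than the pooled SD between probe sets. For the pathway list, the count of 1 at 8 h was 2 without _x_at, _s_at and _a_at probe sets, 2 with centred arrays and 2 with quantile normalization. Its count of 2 at 16 h was 1 without those probe sets. Its count of 2 at 24 h was 1 with a floor at the median of all values, 1 with the median over all probe sets, 1 without those probe sets, 1 with the stricter filter and 3 with centred arrays.

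Of 261 single-gene values, 16 moved by at least the pooled SD and 12 took the other sign, and no value past 1.5-fold did so. CFLAR at 8 h was -0.14 with the median over measured probe sets and -0.11 without _x_at, _s_at and _a_at probe sets, and TNFSF10 was -0.39 and -0.18. CFLAR at 24 h took the opposite sign, 0.069 and 0.18, and XIAP at 24 h was -0.14 without those probe sets. TNFRSF10B at 8 h was -0.18 with the median over all its probe sets. No paired analysis was possible because each group has 1 array, and no replicate could be left out. The table came without detection calls, so for dim probe sets signal over background is unknown.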

Other observations

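HBB, the beta-globin gene, listed as an erythroid marker, had intensities of 1080, 1043, 995 and 1219 on the control, 8, 16 and 24 h arrays, far above the array medians of 92.2 to 95.4. It was the only erythroid marker of the list with a probe set annotated to 1 gene. The myeloid markers CD14 and LYZ had at most 51.0 and 24.9 on any array, and the T cell marker CD2 at most 42.6.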
